A study of Mus musculus with 24 samples.

Results

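Cebpa-KO liver was set against WT liver, with 6 libraries of each taken from the 24 in the series by the names of their columns. Of the 54432 genes in the table, the 19810 with a mean value of at least 1 over all 24 libraries were compared. RNA came from whole liver of male C57BL/6 mice. Cebpa-KO mice had floxed Cebpa alleles and WT mice had none, and Trib1 was not floxed in either group. Mice of both groups received AAV-Cre, an adeno-associated virus that carries the Cre recombinase, by intraperitoneal injection when they were 20 to 21 weeks old. Livers were collected around midday, 4 weeks after the injection, from chow-fed mice fasted for 4 h. The series has a further pair of groups treated in the same way, labelled DKO (floxed Trib1 and floxed Cebpa) and Trib1-KO (floxed Trib1 alone), which give a separate comparison with and without Cebpa. Whole liver holds other cells beside hepatocytes, and the promoter that drives Cre is not given in the sources used here. In such samples, fewer cells of a type and less RNA per cell cannot be told apart.

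Cebpa encodes C/EBPα, a basic leucine zipper transcription factor that binds DNA as a dimer with itself or with other C/EBP and ATF family members. In liver it is known as a driver of hepatocyte differentiation and of genes for glucose, urea, bile acid and lipid metabolism and for secreted plasma proteins. Tribbles pseudokinases, Trib1 among them, bind C/EBPα and bring it to the COP1 ubiquitin ligase for degradation.

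Values are normalized counts, which are estimated counts that the authors scaled per library. A log2 fold change is the difference between group means of log2(value + 1), Cebpa-KO over WT, with its standard error after ±. A gene is called where the limma adjusted p is under 0.05. Library totals were 23550100 to 25223200 normalized counts in Cebpa-KO and 24338600 to 26172100 in WT, from an estimated 19764800 to 26839300 and 21681800 to 27720500 reads. Hepatocyte markers were high in every library, with sums over the 8 markers of 2322000 to 3123300 normalized counts in Cebpa-KO and 1711100 to 2463500 in WT. Most of each sum was Alb, at 1700000 to 2590000 and 1080000 to 1810000. Of the 8 markers, 2 were called higher and 2 lower, with a median log2 fold change of -0.07. The mice came from 2 cohorts that the column names do not assign, and p-values measure the spread between these samples. Among the 12 libraries, F3 of Cebpa-KO stood apart for acute phase genes and B3 of WT for Mup genes, so values without them are given where they matter. Leaving out F3 gave 870 genes called higher and 978 lower, and leaving out B3 gave 833 and 954.

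In Cebpa-KO liver, Cebpa was at 82.2 ± 17.5 normalized counts, against 6019 ± 1057 in WT (SD, n = 6 each), which is 1.36% of the WT mean. The gene (ENSMUSG00000034957.10, chromosome 7, 35119293 to 35121928 on GRCm38, plus strand) had 50.5 to 101 (median 84.9) in Cebpa-KO, against 4264 to 7412 (median 6144) in WT. No Cebpa-KO library came near the WT range (log2 fold change -6.19 ± 0.16, limma adjusted p = 6.8e-19; exact permutation p = 0.00216, 2-sided, the smallest that 6 against 6 libraries can give). Trib1, which was not floxed here, was also lower. It had 215 to 646 (median 287) in Cebpa-KO, against 874 to 1475 (median 1249) in WT, and its groups did not overlap (log2 fold change -1.96 ± 0.24, limma adjusted p = 4.1e-06). The highest Cebpa-KO value of Trib1 was that of F3, and without F3 the log2 fold change was -2.17.

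Among the other C/EBP family members, 2 of 6 rose and none fell. Cebpg, a short family member without an activation domain whose gene lies next to Cebpa, had 2917 to 3639 (median 3039) in Cebpa-KO, against 927 to 1288 (median 1155) in WT (log2 fold change 1.48 ± 0.08, limma adjusted p = 5.5e-12). Cebpe, best known from granulocyte maturation, had 292 to 368 (median 339.9) in Cebpa-KO, against 99.9 to 159.9 (median 135) in WT (log2 fold change 1.32 ± 0.13, limma adjusted p = 1.9e-07). For both genes the lowest Cebpa-KO library was above the highest WT library. Cebpb and Cebpd, the members induced in the acute phase, overlapped between groups and were not called, with log2 fold changes of -0.20 ± 0.26 and -0.16 ± 0.40. Ddit3, which encodes the stress-induced partner CHOP, was at -0.04 ± 0.14, and Cebpz at -0.04 ± 0.10.

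**Figure D1:**
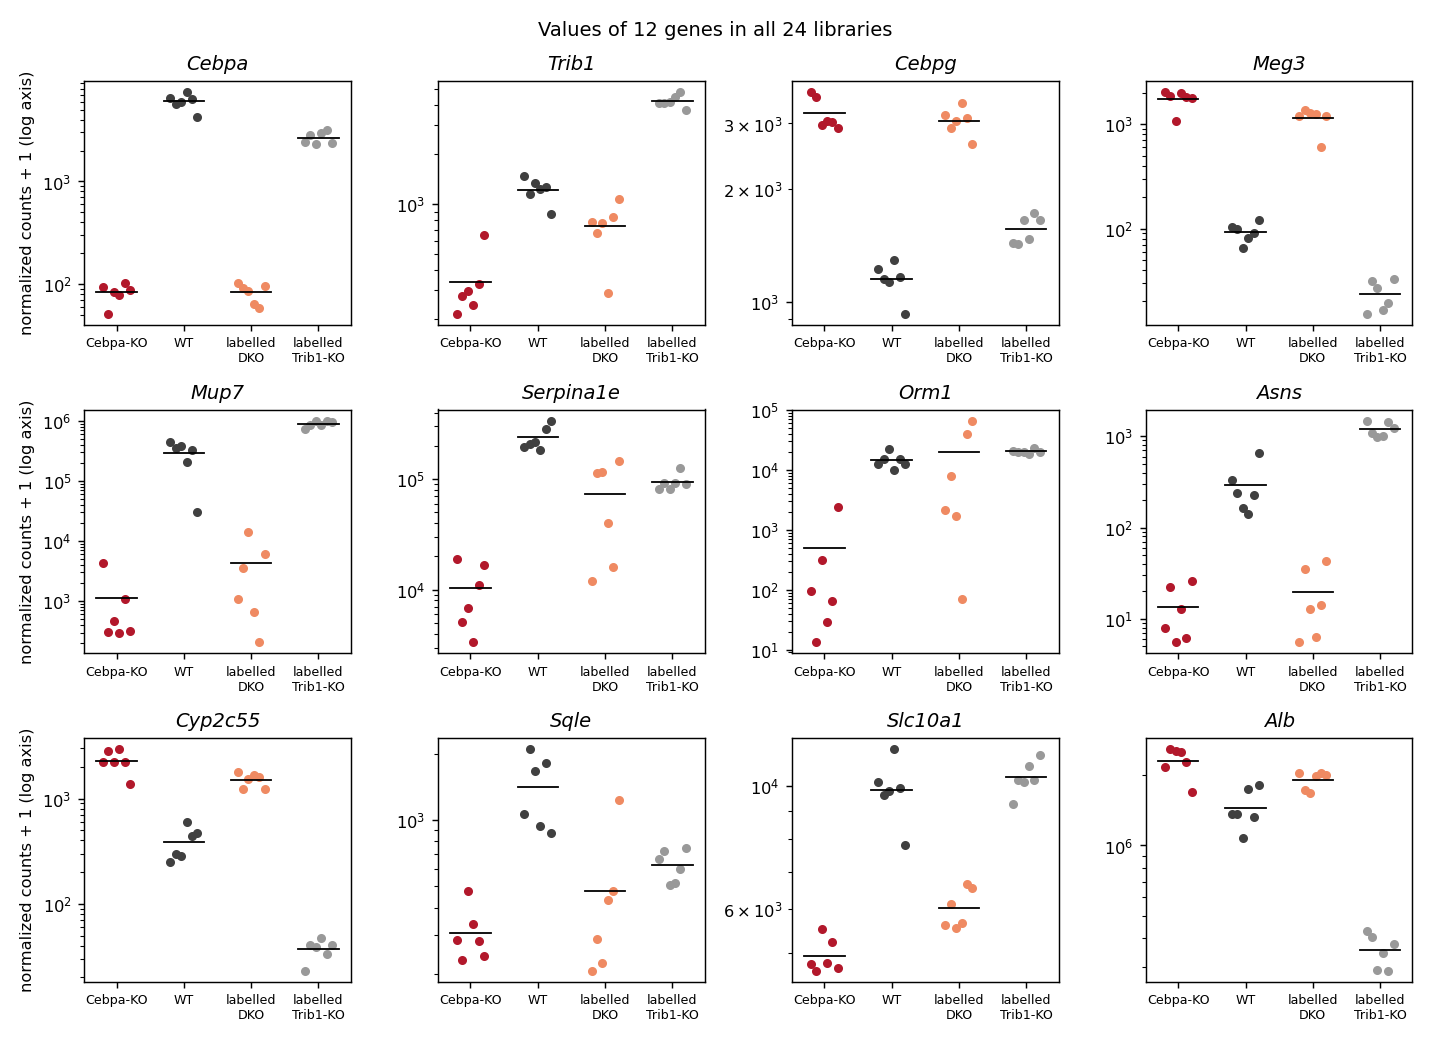
Normalized counts plus 1 of 12 genes in each of the 24 libraries on log axes, with Cebpa-KO left of WT and the libraries labelled DKO left of those labelled Trib1-KO. Points are libraries and bars are means. For Cebpa the Cebpa-KO libraries lie at 50.5 to 101 and the WT libraries at 4264 to 7412.

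Across all 19810 genes, 1946 were called (9.82%). Of these, 912 were higher in Cebpa-KO (4.6% of genes tested) and 1034 were lower (5.22%). Counts of called members in every gene list of this report are to be read beside these shares. Changes of at least 2-fold were found for 250 of the genes called higher (1.26% of genes tested) and 376 of those called lower (1.9%). The 6 Cebpa-KO and 6 WT libraries did not overlap for 1024 genes (5.17%), of which 936 were called. The median log2 fold change over all genes was 0.01, and the median size of a called change was 0.67. With libraries scaled to totals that leave out the Mup genes, 676 genes were called higher and 1209 lower, a share higher of 35.9% against 46.9%, and the median of all genes shifted by -0.04. Under quantile normalization 976 were called higher and 977 lower, a share higher of 50.0%, and the median shifted by 0.01.

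**Figure D2:**
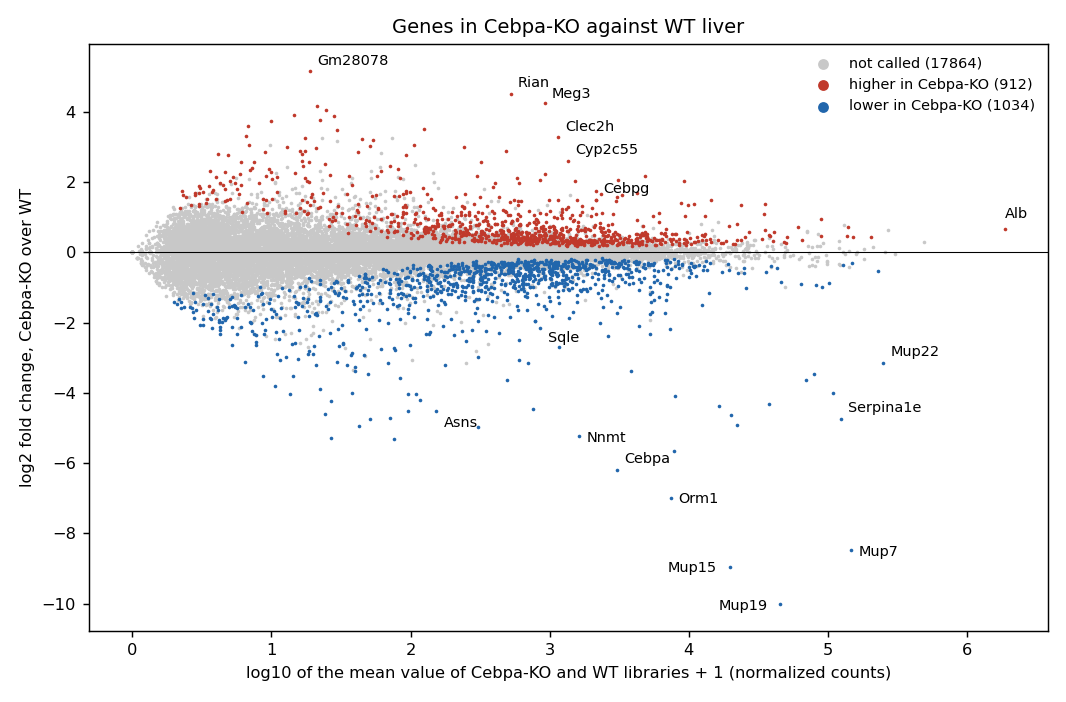
Log2 fold change of Cebpa-KO over WT against the log10 of the mean value for the 19810 genes. Called genes are red where higher in Cebpa-KO (912) and blue where lower (1034), and the 3 points furthest below 0 are Mup19, Mup15 and Mup7.

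The Mup genes, which encode the major urinary proteins that carry pheromones in male mouse urine, fell in Cebpa-KO liver. Their summed value was 425250 ± 91155 normalized counts in Cebpa-KO, against 1759700 ± 573850 in WT (SD, n = 6 each), or 1.75% against 7.02% of all values (log2 fold change -1.98 ± 0.29, exact permutation p = 0.00216, adjusted over 12 sums 0.00289). Of 22 Mup genes, 20 were called lower and none higher, and 15 did not overlap between groups. Mup7 had 292 to 4340.4 (median 391) in Cebpa-KO, against 30279.6 to 450217 (median 339717) in WT (log2 fold change -8.48 ± 0.81, limma adjusted p = 1.1e-07). Mup22 had 31497 to 64249 (median 58025) in Cebpa-KO, against 271950 to 544455 (median 483053) in WT (log2 fold change -3.16 ± 0.30, limma adjusted p = 7.8e-08). Mup3, Mup1 and Mup16 had log2 fold changes of -3.47 ± 0.25, -4.93 ± 0.60 and -4.63 ± 0.46. Mup20, which encodes the pheromone darcin, went the other way without being called, with 262939 to 411580 (median 314956) in Cebpa-KO, against 133931 to 267963 (median 226931) in WT (log2 fold change 0.63 ± 0.22, limma adjusted p = 0.079). It was called under quantile normalization, at 0.95 (limma adjusted p = 0.017). WT library B3 was low for this family, with 30280 normalized counts of Mup7 against 205840 or more in the other 5 WT libraries. Without B3 the log2 fold change of Mup7 was -9.05 and 20 Mup genes were still called lower. Many members are near-identical copies, so how reads were split among them is uncertain, and the sum does not depend on that split. The sum does include Mup20, which did not fall and was a large part of it in Cebpa-KO. The median log2 fold change of the 22 Mup genes was -3.81, against -1.98 for the sum.

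Among secreted plasma proteins, the α1-antitrypsin genes fell and albumin rose. Alb, the main plasma carrier, had 1700000 to 2590000 (median 2395000) in Cebpa-KO, against 1080000 to 1810000 (median 1370000) in WT (log2 fold change 0.67 ± 0.15, limma adjusted p = 0.0038), and it made up 9.41% of all values in Cebpa-KO and 5.82% in WT. Its groups overlapped. Its call was lost in 1 of 22 alternatives, quantile normalization, which left no difference between the groups. Quantile normalization gives genes of the same rank the same value, so it cannot show a change in a gene that keeps its rank. Selenop, the selenium carrier, had 152310 to 194257 (median 169022) in Cebpa-KO, against 90077 to 118187 (median 107600) in WT without overlap (log2 fold change 0.71 ± 0.09, limma adjusted p = 2.5e-06). The 5 Serpina1 genes, mouse paralogs of the protease inhibitor α1-antitrypsin, summed to 359500 ± 55060 in Cebpa-KO and 768030 ± 65285 in WT (log2 fold change -1.11 ± 0.10, exact permutation p = 0.00216, adjusted over 12 sums 0.00289). They fell unequally. Serpina1e had 3355 to 18991 (median 8973) in Cebpa-KO, against 185419 to 338837 (median 213636) in WT (log2 fold change -4.76 ± 0.50, limma adjusted p = 4.8e-07). The log2 fold changes of Serpina1a, Serpina1b and Serpina1d were -0.98 ± 0.11, -0.88 ± 0.10 and -0.91 ± 0.11, and Serpina1c was not called (-0.18 ± 0.11). These paralogs share sequence, so single members are less certain than their sum. Serpina3k, a related protease inhibitor, was at -0.54 ± 0.13.

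The upstream sequences of Serpina1a and Serpina1e are shown because these paralogs differed so much in their change. Each runs from 250 bases before the RefSeq start to the base before it, on GRCm38.p6, read on the minus strand of chromosome 12, and capitals mark matches to TTGCNNAA, a C/EBP-like motif, on either strand.
Serpina1a, chr12:103863620-103863869: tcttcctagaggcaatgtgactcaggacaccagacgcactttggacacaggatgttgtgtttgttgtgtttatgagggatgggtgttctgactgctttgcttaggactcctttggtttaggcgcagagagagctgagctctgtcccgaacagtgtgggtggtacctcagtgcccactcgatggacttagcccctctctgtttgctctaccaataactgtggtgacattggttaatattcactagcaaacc
Serpina1e, chr12:103956898-103957147: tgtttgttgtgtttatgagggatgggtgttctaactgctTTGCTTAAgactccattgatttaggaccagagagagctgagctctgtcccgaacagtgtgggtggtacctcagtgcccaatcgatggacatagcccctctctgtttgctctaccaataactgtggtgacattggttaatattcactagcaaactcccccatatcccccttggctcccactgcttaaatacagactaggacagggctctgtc
In an alignment with free ends, 184 of 193 aligned positions (95.3%) were identical. The motif stood in the Serpina1e window and also in those of Serpina1b and Serpina1d, which fell much less, and not in that of Serpina1a. The window of Serpina1c was not compared. The windows do not start at the same base of the alignment, since the RefSeq starts differ.

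Of 23 acute phase genes, the plasma proteins whose synthesis rises in inflammation, 4 fell and 1 rose, with a median log2 fold change of -0.59. Orm1, which encodes orosomucoid, had 12.4, 28.3, 64.0, 93.4, 310.4 and 2414 normalized counts in Cebpa-KO, against 9765 to 22118 in WT (log2 fold change -6.99 ± 1.18, limma adjusted p = 0.00024). The 2414 was library F3, and without F3 the log2 fold change was -7.88. Saa4, a constitutive serum amyloid A, was at -1.37 ± 0.28, and Orm3 and Lbp, the lipopolysaccharide binding protein, at -3.88 ± 0.77 and -1.30 ± 0.31. Crp rose (0.37 ± 0.08). Saa1, the inducible form, was at 18119 in F3 and 271 to 1295 in the other 5 Cebpa-KO libraries, against 557 to 6882 in WT, and was not called. Without F3, 7 acute phase genes were called lower and 1 higher. Nnmt, which methylates nicotinamide, followed the same pattern, with 1552 in F3 and 16.3 to 262 in the other 5 Cebpa-KO libraries, against 1634 to 4241 in WT (log2 fold change -5.23 ± 0.92, limma adjusted p = 0.00039).

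Complement genes rose for 5 of 20 members and fell for 3, and coagulation genes rose for 4 of 18 and fell for 2, so that neither list moved one way (medians 0.04 and 0.07). Without F3, 4 complement genes rose and 4 fell, and 3 coagulation genes rose and 3 fell (medians -0.01 and 0.04). C6, a subunit of the membrane attack complex, had 1617 to 5136 (median 2333) in Cebpa-KO, against 6314 to 10092 (median 8067) in WT (log2 fold change -1.71 ± 0.23, limma adjusted p = 1.1e-05). F11, coagulation factor XI, had 486 to 979 (median 704) in Cebpa-KO, against 1766 to 2617 (median 2225) in WT without overlap (log2 fold change -1.70 ± 0.16, limma adjusted p = 8.8e-08). Cpb2, a fibrinolysis inhibitor, was lower at -1.13 ± 0.25. F13b, the carrier subunit of factor XIII, was higher at 0.45 ± 0.09.

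Urea cycle and glucose genes fell at particular steps. Of 8 urea cycle genes, 3 fell and 1 rose. Cps1, which makes carbamoyl phosphate at the entry to the cycle, had 43457 to 83012 (median 51157) in Cebpa-KO, against 95281 to 125457 (median 103273) in WT (log2 fold change -0.92 ± 0.19, limma adjusted p = 0.0015). Slc25a15, the mitochondrial ornithine carrier, and Arg1, the arginase of the last step, were lower at -0.79 ± 0.15 and -0.59 ± 0.14. Otc, which acts directly after Cps1, was higher at 0.51 ± 0.08. Of 16 genes of gluconeogenesis and glycogen, 5 fell and 1 rose, with a median of -0.08, and without F3 the fallen genes were 3. Ppp1r3b, which targets protein phosphatase 1 to glycogen, had 891 to 1677 (median 1063) in Cebpa-KO, against 2342 to 5821 (median 3427) in WT (log2 fold change -1.54 ± 0.21, limma adjusted p = 1.4e-05). G6pc, the glucose-6-phosphatase that releases glucose, was lower at -0.92 ± 0.23. Pck1, the cytosolic gluconeogenic enzyme, had 45313 to 106153 (median 85059) in Cebpa-KO, against 59671 to 105428 (median 93084) in WT and was not called (log2 fold change -0.15 ± 0.18, limma adjusted p = 0.72). Slc2a2, the hepatic glucose transporter, was higher at 0.56 ± 0.16, a call lost in 7 of 22 alternatives.

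Amino acid genes were divided. Of 30 genes of amino acid and one-carbon catabolism, 10 fell and 4 rose, with a median of -0.07. Got1, the cytosolic aspartate aminotransferase, had 1456 to 3462 (median 2381) in Cebpa-KO, against 4831 to 11757 (median 7679) in WT (log2 fold change -1.77 ± 0.32, limma adjusted p = 0.00047). Hpd and Hgd, of tyrosine breakdown, were at -0.57 ± 0.10 and -0.68 ± 0.11, and Ftcd, of histidine breakdown, was higher at 0.44 ± 0.07. The strongest fall in the group of amino acid response genes was that of Asns, the asparagine synthetase. It had 4.54, 5.15, 6.87, 11.8, 21.2 and 25.01 normalized counts in Cebpa-KO and 141 to 653 in WT (log2 fold change -4.51 ± 0.47, limma adjusted p = 4.2e-07). Atf5 and Atf4, transcription factors of the same response, were at -0.96 ± 0.11 and -0.38 ± 0.09. The other 17 of 20 genes on this list were not called, among them Chac1 and the endoplasmic reticulum chaperone Hspa5.

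The Asns promoter is shown because its capitals, TGATGAAAC, are the letters known as the amino acid response element of this gene. It covers the 100 bases before the RefSeq start on GRCm38.p6, minus strand.
Asns, chr6:7693210-7693309: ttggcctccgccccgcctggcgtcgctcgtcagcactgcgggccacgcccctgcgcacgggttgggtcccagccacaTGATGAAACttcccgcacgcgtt
Searched on both strands, TGATGAAAC stood within 250 bases upstream in 0.181% of 12730 tested genes with a RefSeq promoter.

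Many cholesterol synthesis genes fell in Cebpa-KO liver. Of 21 members, 13 were called lower and none higher, with a median of -0.72, against 0.01 over all genes. Sqle, the squalene epoxidase, had 232 to 474 (median 282) in Cebpa-KO, against 875 to 2096 (median 1363) in WT (log2 fold change -2.15 ± 0.31, limma adjusted p = 4.1e-05). Mvd and Msmo1, enzymes of the mevalonate and sterol parts of the pathway, were at -1.19 ± 0.21 and -1.16 ± 0.19. Hsd17b7 was at -0.89 ± 0.15 and Srebf2, the transcription factor that activates the pathway, at -0.73 ± 0.15. Insig2, which holds the SREBP precursors in the endoplasmic reticulum, also fell (log2 fold change -2.09 ± 0.16, limma adjusted p = 2.9e-09). Ebp, Sc5d and Acat2 were within 0.1 of 0 and were not called.

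Bile acid genes also moved mostly downwards, with 9 of 21 called lower and 2 higher (median -0.29). Slc10a1, the sodium-dependent bile acid importer, had 4643 to 5525 (median 4782) in Cebpa-KO, against 7805 to 11636 (median 9843) in WT without overlap (log2 fold change -0.98 ± 0.08, limma adjusted p = 3.7e-09). Cyp8b1, which sets the share of 12-hydroxylated bile acids, had 2724 to 5913 (median 4445) in Cebpa-KO, against 6301 to 11188 (median 10317) in WT (log2 fold change -1.20 ± 0.20, limma adjusted p = 0.00016). The sterol exporter Abcg8 was at -0.63 ± 0.10 and the phospholipid exporter Abcb4 at -0.49 ± 0.07. Cyp7a1, the rate-limiting enzyme of bile acid synthesis, was not called (0.08 ± 0.56).

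Of 21 fatty acid and triglyceride synthesis genes, 3 fell and none rose (median -0.24), with 3 and 1 without F3. Among all genes 5.22% were called lower and 4.6% higher. Fasn, the fatty acid synthase, had 2305 to 3271 (median 2953) in Cebpa-KO, against 3954 to 11393 (median 8038) in WT (log2 fold change -1.41 ± 0.18, limma adjusted p = 6.7e-06). Elovl5, which elongates polyunsaturated fatty acids, and Agpat2, which makes phosphatidic acid, were at -1.36 ± 0.22 and -0.73 ± 0.09. Acly, Acaca and Scd1 were not called. Among 19 lipid droplet genes, 4 fell and 1 rose, with 4 and none without F3, and Plin5, a droplet coat protein, was at -1.09 ± 0.23. Of 21 apolipoprotein genes, 6 fell and none rose, with a median of -0.07, and 5 fell and 1 rose without F3. Apom, an HDL apolipoprotein that carries sphingosine-1-phosphate, was at -0.77 ± 0.13, and Apoa1, the main HDL protein, at -0.30 ± 0.09, a call lost in 11 of 22 alternatives. Apob, the structural protein of VLDL and LDL, had 135550 to 175653 (median 158046) in Cebpa-KO, against 155034 to 171622 (median 158822) in WT and was not called (log2 fold change -0.06 ± 0.07, limma adjusted p = 0.72). Sort1, a sorting receptor, was lower (log2 fold change -0.58 ± 0.13, limma adjusted p = 0.0038).

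**Figure D3:**
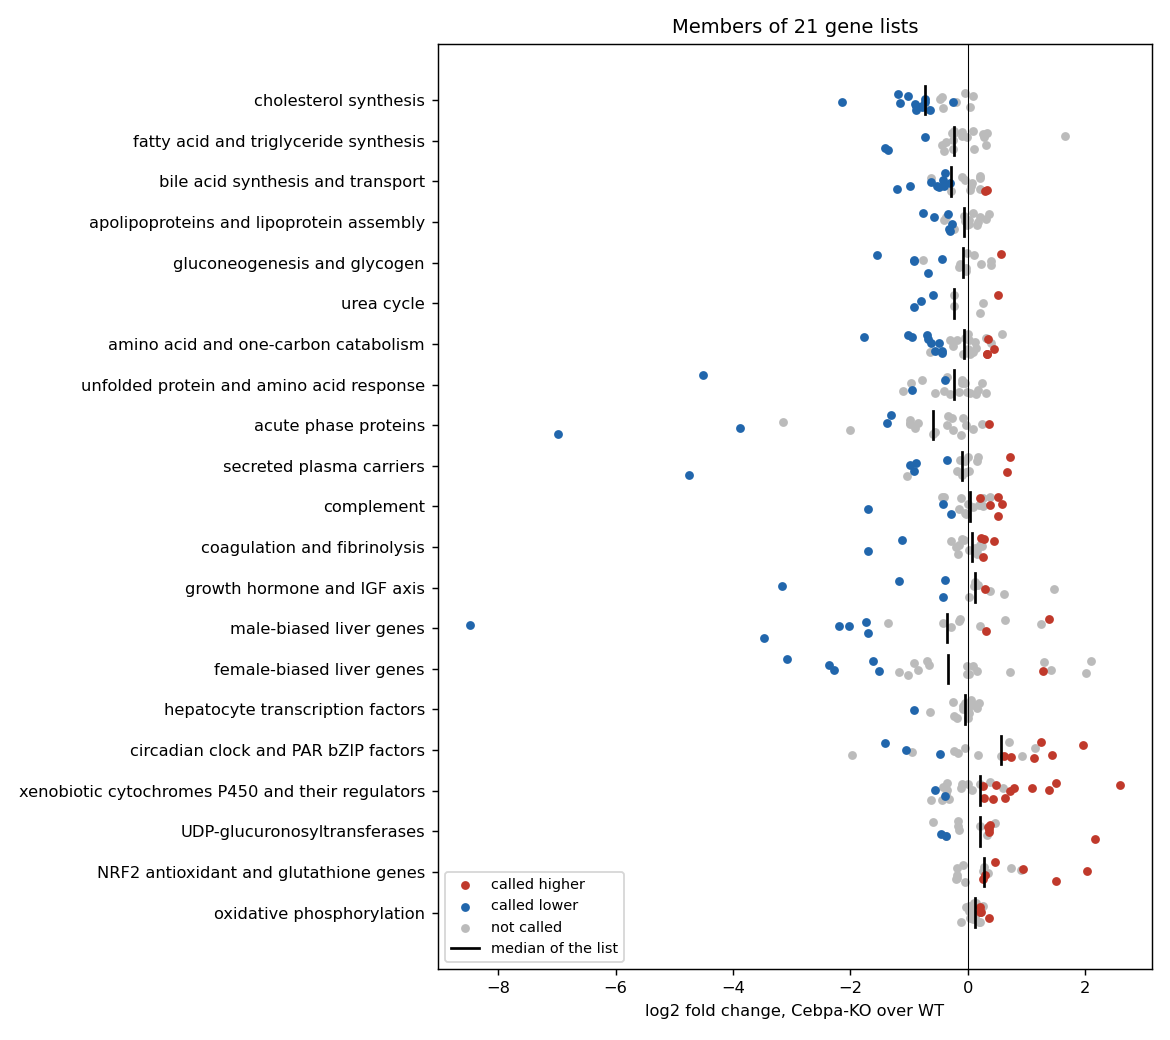
Log2 fold changes of Cebpa-KO over WT for the measured members of 21 gene lists, with called members in red (higher) or blue (lower) and the median of each list as a bar. The cholesterol synthesis median lies at -0.72 and that of the clock list at 0.56.

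More xenobiotic and glutathione genes rose than fell. Of 27 drug-metabolizing cytochromes P450 and their regulators, 11 rose and 2 fell (median 0.21), with 12 and 1 without F3. Of 17 NRF2 and glutathione genes, 6 rose and none fell (median 0.28). Cyp2c55 had 1376 to 2957 (median 2208) in Cebpa-KO, against 251 to 593 (median 365) in WT without overlap (log2 fold change 2.59 ± 0.21, limma adjusted p = 4.2e-09). Its relatives Cyp2c37 and Cyp2c54 were at 1.50 ± 0.21 and 1.39 ± 0.19, and the summed value of the 15 Cyp2c genes was 169890 ± 21951 in Cebpa-KO and 101770 ± 6945 in WT (log2 fold change 0.73 ± 0.09, exact permutation p = 0.00216, adjusted over 12 sums 0.00289). Cyp2e1, the ethanol-inducible form, was at 0.43 ± 0.11 and Cyp2f2 at 0.63 ± 0.10. Gstm3, a glutathione transferase, had 10050 to 17970.1 (median 15054) in Cebpa-KO, against 1707 to 5827 (median 3831) in WT (log2 fold change 2.03 ± 0.26, limma adjusted p = 7e-06). Gstm1 and Gsta2 were at 0.94 ± 0.22 and 1.50 ± 0.31. Of 15 UDP-glucuronosyltransferases, 5 rose and 2 fell, with Ugt1a9 at 2.16 ± 0.34. The regulators Nr1i2, Nr1i3 and Ahr, which encode PXR, CAR and the dioxin receptor, were not called. Members of the Cyp2c, Gst and Ugt1a families share sequence, so single members are less certain than the sums. The carboxylesterase Ces1c, among the called genes with the most normalized counts, was higher at 0.34 ± 0.08.

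Clock genes changed in both directions. Of 19, 6 rose and 3 fell. Dbp, a PAR bZIP factor and clock output, had 2512 to 2973 (median 2679) in Cebpa-KO, against 471 to 2328 (median 1114) in WT (log2 fold change 1.25 ± 0.27, limma adjusted p = 0.0027). The Cebpa-KO libraries lay close together and the WT libraries were spread. Within the numbers that end the column names, whose meaning is not given, the difference was 0.39, 1.42 and 1.95 on the log2 scale for numbers 1, 2 and 3. Nr1d2, which encodes the clock repressor REV-ERBβ, had 2847 to 3547 (median 3129) in Cebpa-KO, against 1488 to 2512 (median 2317) in WT without overlap (log2 fold change 0.61 ± 0.12, limma adjusted p = 0.0013). Arntl, which encodes BMAL1, had 50.9 to 105 (median 86.2) in Cebpa-KO, against 58.5 to 512 (median 246) in WT (log2 fold change -1.42 ± 0.39, limma adjusted p = 0.019), and Per2 was higher at 1.96 ± 0.59. Nfil3, a repressor that competes with the PAR factors for DNA, was at -1.05 ± 0.19. The Arntl call was lost in 4 of 22 alternatives and the Per2 call in 9 of 22. Both were lost without B3, at limma adjusted p = 0.056 and 0.065.

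More growth hormone and sex-biased genes fell than rose. Of 12 genes of the growth hormone and IGF axis, 4 fell and 1 rose, with 4 and 2 without F3. Igfbp1, an IGF binding protein induced by fasting, had 65.1 to 361 (median 108) in Cebpa-KO, against 683 to 2621 (median 959) in WT (log2 fold change -3.16 ± 0.41, limma adjusted p = 8e-06). Igfbp2 and Stat5b were lower at -1.18 ± 0.18 and -0.39 ± 0.09, Ghr higher at 0.29 ± 0.08, and Igf1 was not called. Of 16 male-biased liver genes 6 fell and 2 rose, and of 22 female-biased genes 5 fell and 1 rose, with 4 and 2 of the female-biased genes without F3. Elovl3, a male-biased fatty acid elongase, was at -2.20 ± 0.22 and Cyp4a12b at -2.02 ± 0.24. Cyp17a1 and Abcd2, female-biased in mouse liver, were at -2.28 ± 0.31 and -2.36 ± 0.49.

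Of 18 hepatocyte transcription factors, Zhx2 alone was called, beside 9.82% of all genes tested. It had 364 to 415 in Cebpa-KO, against 1078, 1165, 1144 and 1247 in WT libraries A1, A2, A3 and B3 and 320 and 276 in B1 and B2 (log2 fold change -0.92 ± 0.28, limma adjusted p = 0.036). All 12 libraries labelled DKO or Trib1-KO lay at 282 to 403, so the WT libraries were the ones that differed among themselves, and the call was lost under 13 of 22 alternatives. Nnt, the mitochondrial transhydrogenase, was lower in WT than in the other 3 groups. Its 2 entries summed to 2973 ± 383 in Cebpa-KO, against 999.6 ± 97.8 in WT, with 2392 ± 445 and 2671 ± 140 in the libraries labelled DKO and Trib1-KO (SD, n = 6 each). A deletion within Nnt is known in the C57BL/6J substrain, and the labels give C57BL/6 without a substrain. The part of the genetic background in other results was not tested. Hfe2, the hemojuvelin that drives hepcidin, was lower at -0.97 ± 0.13, while Hamp itself, the hepcidin gene, was not called (log2 fold change -0.13 ± 0.16, limma adjusted p = 0.73).

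The remaining lists are given by their counts, beside the 9.82% called of all genes. Of 21 genes of fatty acid oxidation and ketogenesis, 2 rose and 2 fell, with Cpt2, the inner carnitine palmitoyltransferase, at -0.32 ± 0.07 and the medium-chain dehydrogenase Acadm at 0.30 ± 0.09, and without F3 4 rose and 2 fell. The Acadm call was lost in 9 of 22 alternatives. Of 22 oxidative phosphorylation genes 4 rose and none fell, with Sdha, a subunit of succinate dehydrogenase, at 0.35 ± 0.09. Of 15 pericentral genes 3 rose and 4 fell, and of 15 periportal genes 1 rose and 5 fell. Of 15 iron genes 4 fell. Of 15 immediate early genes Klf6 rose (0.74 ± 0.13) and Dusp1 fell (-0.99 ± 0.32), a call lost in 11 of 22 alternatives, and without F3 1 rose and 3 fell. Of 20 interferon-stimulated genes 3 rose, but 1 without F3. Among 9 Tribbles and COP1 ligase genes, Trib1 alone was called. Of 25 cell cycle genes 3 rose and 2 fell, but 1 rose and 2 fell without F3.

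Cdkn1a, which encodes the p21 inhibitor of the cell cycle, had 62.5 to 154 (median 125) in Cebpa-KO, against 255 to 1158 (median 477) in WT (log2 fold change -2.24 ± 0.35, limma adjusted p = 0.0001). E2f1 was at 0.65 ± 0.12, and Mki67 and Top2a, which mark dividing cells, were not called. Axin2 and Oat, β-catenin targets of pericentral hepatocytes, were lower at -1.09 ± 0.17 and -1.50 ± 0.21. The 15 pericentral genes did not move one way, with 3 higher, 4 lower and a median of 0.01.

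The largest rises included the non-coding genes of the imprinted Dlk1 to Meg3 region on chromosome 12. Rian had 751 to 1168 (median 988) in Cebpa-KO, against 29.3 to 66.4 (median 44.2) in WT (log2 fold change 4.50 ± 0.26, limma adjusted p = 1.1e-11). Meg3, a maternally expressed long non-coding RNA, had 1078 to 2028 (median 1837) in Cebpa-KO, against 64.3 to 119 (median 93.4) in WT (log2 fold change 4.24 ± 0.22, limma adjusted p = 1.7e-12). Mirg, the host of a microRNA cluster, had 9.68 to 31.9 (median 22.0) in Cebpa-KO, against 0 to 3.31 (median 2.06) in WT (log2 fold change 2.99 ± 0.49, limma adjusted p = 0.00019). All 3 were without overlap, while Dio3, the deiodinase at the end of the region, was near 0 in both groups and not called. The remaining 3 of the 7 genes listed for the region had means under 1.

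Other genes with low values in WT were also among the largest rises. Clec2h, a C-type lectin-like gene, had 1557 to 2694 (median 1981) in Cebpa-KO, against 109.9 to 436 (median 201) in WT (log2 fold change 3.28 ± 0.30, limma adjusted p = 6.3e-08). Gpx6, a glutathione peroxidase, had 114 to 300.3 (median 234) in Cebpa-KO, against 6.50 to 38.2 (median 17.9) in WT (log2 fold change 3.51 ± 0.39, limma adjusted p = 1.2e-06). Adam32, Mas1, Pcdh11x, Smpdl3b, Pde6c and D7Ertd443e rose by 3.21 to 4.04 on the log2 scale, with medians of 23.3 to 94.7 normalized counts in Cebpa-KO and 0 to 8.62 in WT. Among the largest falls, Cldn14, a tight junction protein, had 0 to 8.84 (median 3.50) in Cebpa-KO, against 108 to 212 (median 147) in WT (log2 fold change -5.30 ± 0.52, limma adjusted p = 1.5e-07). Grm8, a glutamate receptor, was listed at 0 in 5 of the 6 Cebpa-KO libraries and at 24.6 to 112 in WT. Lrtm1, a leucine-rich repeat membrane protein, was at -4.71 ± 0.51.

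Genes close to Cebpa on chromosome 7 were counted apart, as a description with no test. Within 1 Mb of Cebpa, 7 of 35 genes were called (20.0%), all higher, and within 10 Mb 55 of 343 (16.0%), 37 of them higher. On the rest of chromosome 7 the share was 8.40% (102 of 1215), and on the other chromosomes 9.82% (1773 of 18051). Cebpg, given above, is 1 of the 7 called genes within 1 Mb and starts 72.9 kb from Cebpa. Gm35611, an unnamed transcript that starts 32.5 kb from Cebpa, had 35.5 to 62.7 (median 53.4) in Cebpa-KO, against 1.76 to 3.93 (median 2.51) in WT. Pepd and Lrp3, a dipeptidase and a lipoprotein receptor relative, were higher at 0.63 ± 0.10 and 0.51 ± 0.14, and the Lrp3 call was lost in 8 of 22 alternatives. Gm28078 and Gm28076, predicted genes 2.00 and 2.02 Mb away, were listed at 0 in every WT library and at 24.8 to 48.5 and 7.38 to 16.5 in Cebpa-KO. They were also at 0 in every library labelled Trib1-KO and at 24.7 to 34.2 and 11.4 to 17.5 in those labelled DKO. Pop4, an RNase P subunit 3.14 Mb away, was lower at -0.88 ± 0.11. The floxed locus and the DNA around it came together in both groups with floxed Cebpa, so an effect of losing Cebpa and one of the region's own alleles cannot be told apart. Leaving out genes within 10 Mb gave 875 called higher and 1015 lower.

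**Figure D4:**
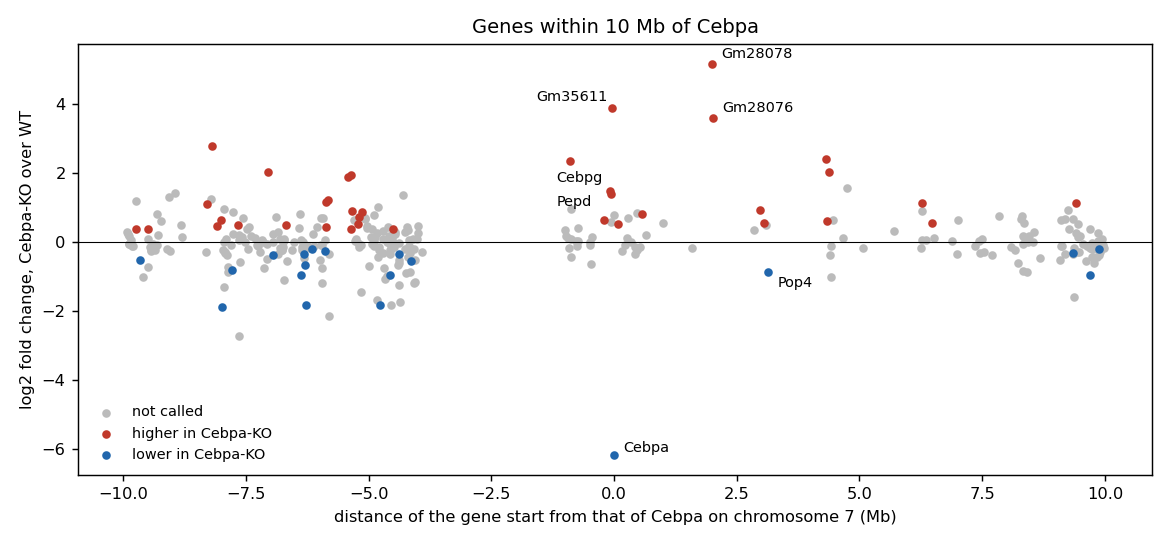
Log2 fold change of Cebpa-KO over WT for genes on chromosome 7 against the distance of their start from that of Cebpa in Mb. Called genes are red (higher) or blue (lower), and all 7 called genes within 1 Mb beside Cebpa itself are higher.

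Of 84 measured markers of other cells, 12 were called (14.3%), against 9.82% of all genes. None of 14 Kupffer cell markers was called, 3 of 12 endothelial markers rose and 1 of 12 stellate cell markers fell. Of 11 cholangiocyte markers, Spp1 (osteopontin) rose (log2 fold change 1.66 ± 0.21, limma adjusted p = 4.6e-06) and Sox9 and Krt23 fell, at -1.88 ± 0.24 and -1.48 ± 0.38. Krt19, Krt7 and Epcam were not called. The summed cholangiocyte list was 2900 to 8192 in Cebpa-KO and 1546 to 2192 in WT, most of it Spp1, and that of the Kupffer cell list was 12962 to 16994 in Cebpa-KO and 10165 to 18114 in WT. Of 10 T and NK, 8 B and plasma, 8 neutrophil and 6 erythroid cell markers, 1 of each list was called, namely Ptprc, Ighm and Retnlg higher and Alas2 lower, and without F3 no neutrophil marker was called. Without F3, 2 endothelial markers rose and no stellate cell marker fell. None of 18 extracellular matrix genes was called, and of 11 fetal liver genes only Spink1 was called, higher. Of 2 measured pancreatic acinar markers Cela1 rose (0.77 ± 0.17), and the 1 measured adipocyte or muscle marker was not called. The part of other cells in the results above was not tested.

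The libraries labelled DKO and Trib1-KO give the loss of Cebpa in a background where Trib1 was floxed, with no library in common with the comparison above but with the same estimate of the spread. Trib1 went against its label there. It stood at 286 to 1077 in the libraries labelled DKO and at 3734 to 4784 in those labelled Trib1-KO, which is above the 874 to 1475 of WT. A value summed over a gene also counts reads outside a deleted part, so the groups are called by their labels throughout. Cebpa was at 58.1 to 102 in the libraries labelled DKO and 2295 to 3163 in those labelled Trib1-KO. In this comparison 6006 genes were called (30.3%), 2901 higher and 3105 lower. With libraries scaled to totals without Mup genes these were 1453 and 6329, with a shift of -0.26 in the median of all genes.

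Of the 912 genes called higher in Cebpa-KO against WT, 653 (71.6%) were also called higher and 32 (3.51%) lower in the libraries labelled DKO against those labelled Trib1-KO. Of the 1034 called lower, 650 (62.9%) were also called lower and 41 (3.97%) higher. Among the 17864 genes not called in Cebpa-KO, 17.6% were called in the same direction as their own sign and 8.33% in the opposite one. The difference between the effects was tested by the interaction, and 2490 genes were called (12.6%), 577 of them among the 1946.

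Named genes differed in this respect. Asns, Trib1, Slc10a1 and F11 moved the same way in both backgrounds and were called in each, without a call in the interaction. Meg3 and Rian were also called in each, and rose more where Trib1 was floxed (interaction limma adjusted p = 0.003 and 1.4e-05). Serpina1e was at -0.90 ± 0.50 in the libraries labelled DKO against those labelled Trib1-KO and was not called there, and its effects differed (interaction limma adjusted p = 0.00048). Orm1 was at -2.29 ± 1.18, without a call in that comparison or in the interaction. The cholesterol synthesis list had 13 members called lower in Cebpa-KO, while 4 were lower and 3 higher in the libraries labelled DKO, with 4 of the 13 called in the interaction. Apoa1 went the opposite way, at 0.99 ± 0.09 (interaction limma adjusted p = 1.4e-07). Cyp2c55 and Clec2h rose more in the background with floxed Trib1. There Cyp2c55 was at 5.36 ± 0.21 and Clec2h at 9.84 ± 0.30, both called in the interaction. Mup7 had -8.90 ± 0.81 there, and the interaction was not called.

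**Figure D5:**
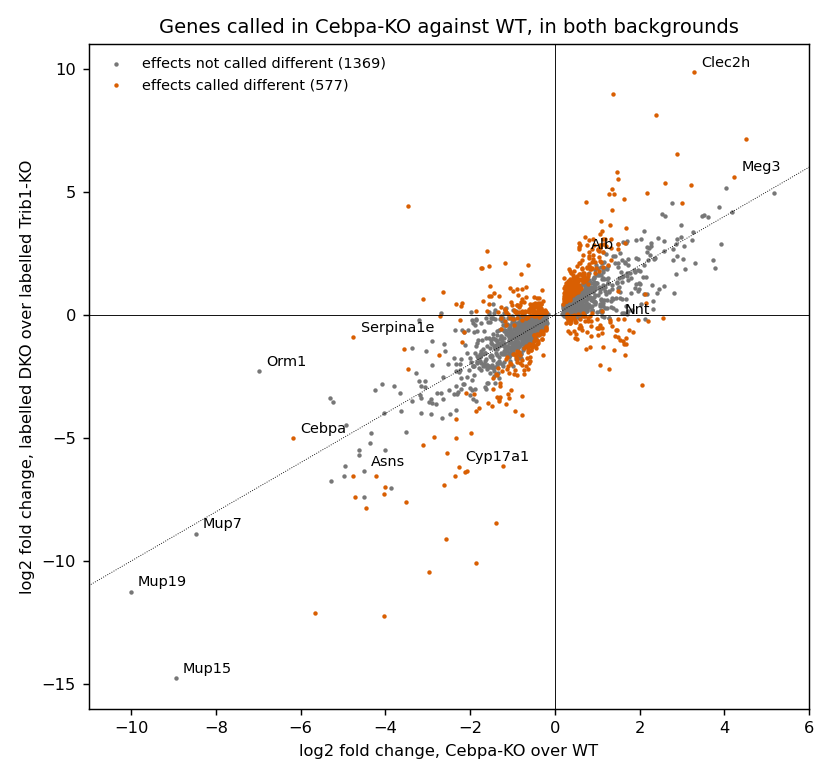
Log2 fold change of the libraries labelled DKO over those labelled Trib1-KO against that of Cebpa-KO over WT, for the 1946 genes called in Cebpa-KO. Orange genes (577) were also called in the interaction and grey genes were not. The dotted line marks equal effects.

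Promoters of called genes were searched for C/EBP-like letters in the 250 bases before the RefSeq start, on both strands, for 12730 of the 19810 genes (64.3%). TTGCNNAA stood in 9.88% of all of these, in 11.0% of 738 genes called lower, in 12.4% of the 233 that fell at least 2-fold and in 9.10% of 670 called higher. The stricter set of TTGCGCAA, TTGCGTAA and TTGCATCA stood in 1.25% of all, 2.30% of those lower, 4.29% of those at least 2-fold lower (10 genes) and 0.896% of those higher. TTGCATCA alone, a composite of C/EBP and ATF half-sites, stood in 0.723% of all and 3.00% of those at least 2-fold lower (7 genes). TTGCATCA is one of the strict set, and TTGCGCAA and TTGCGTAA also match TTGCNNAA.

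The 40-base windows around the strict motif are shown for 7 of the 10 genes that fell at least 2-fold and carry it, leaving out 3 without a gene name. Sequences are those of RefSeq on GRCm38.p6, read on the strand of the gene, and capitals mark the motif on either strand. Slc17a1, Slc3a1, Angptl8 and Pnp lie on the plus strand and Insig2, Fgf21 and Got1 on the minus strand.
Slc17a1, chr13:23868901-23868940: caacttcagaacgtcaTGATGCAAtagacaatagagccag
Insig2, chr1:121328179-121328218: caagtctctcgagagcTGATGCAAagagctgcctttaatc
Slc3a1, chr17:85028269-85028308: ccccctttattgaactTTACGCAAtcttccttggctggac
Fgf21, chr7:45615606-45615645: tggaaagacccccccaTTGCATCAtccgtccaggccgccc
Got1, chr19:43524684-43524723: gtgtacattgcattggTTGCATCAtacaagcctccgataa
Angptl8, chr9:21835364-21835403: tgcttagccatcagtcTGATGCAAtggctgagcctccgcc
Pnp, chr14:50944155-50944194: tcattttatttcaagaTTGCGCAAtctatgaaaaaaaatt
Slc17a1, a phosphate and urate transporter, fell by 2.64 on the log2 scale and Slc3a1, a subunit of the cystine transporter, by 1.87, though F3 lay at 1941 within the WT range of 1483 to 3073. Fgf21, the fasting hormone, was at -1.79 ± 0.41 and Pnp, a purine phosphorylase, at -1.08 ± 0.12. Angptl8, a regulator of lipoprotein lipase, was at -1.60 ± 0.27. A match describes the letters in the window and no binding was measured.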

How the data were processed

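RNA sequencing of liver gave 24 libraries, 6 per group, made from stranded mRNA libraries per the labels' protocols. The deposited values are a signal: the authors divided the estimated count of each gene by a factor for its library. The scaling was read from the values, and Salmon, DESeq2 and GRCm38.p6 are named per the submitters' processing notes without settings. Whole reads could not be recovered, since 61.8 to 65.5% of low values lay within 0.02 of whole multiples of a step, so a count test was not used. GENCODE M21 gave coordinates for 54050 of 54432 genes (99.3%).

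Genes with a mean of at least 1 over 24 libraries were fitted with limma 3.58.1 in R 4.3.3 on log2(value + 1) with an intensity trend, 4 group means and Benjamini-Hochberg adjustment over 19810 genes. The interaction is the DKO minus Trib1-KO difference less the Cebpa-KO minus WT difference. Sums over 12 gene families were compared with a 2-sided exact permutation test over 924 splits. The fit was tested on simulated data. Alternatives were pseudocounts, filters, scalings, array weights, 2 groups alone, a block by column number and each library left out. Results that leave out genes near Cebpa, and lists without F3, were added after seeing the data.

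The members, 34 gene lists, 11 marker lists and the rule for named genes were chosen with earlier results of these data known. The rule named Cebpa, Trib1, Apob and Sort1, the 10 largest rises and falls among called genes with a mean of at least 10 and no overlap, the 8 called genes with the highest mean in each direction, and up to 4 called members per list with the smallest adjusted p. The text gives part of these. Other genes were named as examples or because they carry a motif, after their values were seen. Some genes are not reported here.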

Additional observations from a re-analysis of the deposited data

Results flagged for a closer look

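Among 270 groups of 6 values looked at, 21 held 1 library that lay far from the other 5. For independent, normally distributed values, the rule would set 1 library apart in about 1 in 20 groups by chance. That rate was not established for these values, which include genes near 0 and genes that vary together. Library Cebpa-KO E2 stood apart for Cebpa (50.5, others 77.9 to 101). Library Cebpa-KO E3 stood apart for Cyp7a1 (129.5, others 678 to 1249) and Meg3 (1078, others 1781 to 2028). Library Cebpa-KO F2 stood apart for Grm8 (1.52, others 0 to 0). Library Cebpa-KO F3 stood apart for Cela1 (417, others 581 to 644), Cyp2c54 (10863, others 15110 to 17776) and Fgf21 (2.74, others 7.64 to 12.3). In Cebpa-KO F3 the same held for Gsta2 (1059, others 2958 to 4422), Saa1 (18119, others 271 to 1295) and Saa4 (9261, others 2360.1 to 3878). In Cebpa-KO F3 the same held for Spp1 (7713, others 2446 to 3507) and Trib1 (646, others 215 to 323). Library WT A1 stood apart for Dio3 (0, others 2.12 to 3.67), Mas1 (8.38, others 0 to 0.632) and Pepd (1078, others 775 to 871). Library WT B3 stood apart for Mup1 (5689.8, others 29653 to 76063), Mup16 (11044, others 30811 to 54867) and Mup3 (95863, others 150380 to 164340). In WT B3 the same held for Mup7 (30280, others 205840 to 450220), Serpina1a (141740, others 112340 to 121910) and Spink1 (2.63, others 0 to 0).

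For 44 named entries the effect of floxed Cebpa differed between backgrounds by the limma interaction (adjusted p of 0.036 or less). Values are the log2 effect in labelled DKO over labelled Trib1-KO libraries minus that in Cebpa-KO over WT. Among these, many effects lay on the same side and were larger in the libraries labelled DKO. The difference was -4.19 for Abcd2, 1.77 for Alb, -0.62 for Atf5, 1.76 for Cebpe, 1.53 for Ces1c and 6.56 for Clec2h. It was -3.89 for Cyp17a1, 4.04 for Cyp2c37, 3.53 for Cyp2c54, 2.77 for Cyp2c55, 1.05 for Cyp2e1 and 1.26 for Cyp2f2. It was 0.67 for E2f1, -1.09 for Elovl5, 0.98 for F13b, -1.98 for Fgf21, 1.10 for Ftcd and 0.45 for Ghr. It was -1.10 for Insig2, -2.22 for Krt23, -2.69 for Lrtm1, 1.37 for Meg3, -0.96 for Nfil3 and 0.97 for Otc. It was 2.06 for Pde6c, 2.62 for Rian and 0.66 for Selenop. Others lay on the same side and were smaller there. The difference was 0.53 for Abcg8, 0.75 for Apom, 1.17 for Cebpa, -0.51 for Cebpg, 1.08 for Elovl3 and 1.25 for Mup3. It was 0.56 for Serpina1a, 3.85 for Serpina1e and 1.47 for Sqle. The remaining estimates lay on opposite sides of 0. The difference was 1.29 for Apoa1, 0.51 for Cpt2, 1.02 for G6pc, 1.44 for Igfbp2, -2.12 for Klf6 and 1.27 for Msmo1. It was -2.15 for Nnt (ENSMUSG00000025453.18) and -1.65 for Nnt (ENSMUSG00000116207.1).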

How the results depend on the processing

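Over 22 alternatives, 676 to 976 genes were called higher and 831 to 1209 lower in Cebpa-KO apart from the settings that leave out 1 library, which gave 720 to 901 higher and 863 to 978 lower. With libraries scaled to totals without Mup genes, the libraries labelled DKO against those labelled Trib1-KO gave 1453 genes higher and 6329 lower, and the interaction gave 626 and 2873. The median of all genes then shifted by -0.26 and -0.22. With 1 library left out these counts were 2668 to 2780 and 2832 to 2983, and 1146 to 1266 and 1103 to 1330. Among named genes and family sums, no call changed sign in any setting, while the uncalled Apob was at -0.06, and at 0.15 under quantile normalization. Under quantile normalization the DKO comparison gave 3260 genes higher and 2802 lower, so the more frequent direction changed. Pairs of a Cebpa-KO and a WT library were compared by the correlation of their deviations from the group mean, which was weak in all pairs. Libraries with the same number in the column name were slightly more alike, at -0.03 to 0.07 (median 0.03, 12 pairs). The other 24 pairs were at -0.09 to 0.03 (median -0.01). Whether the numbers follow a batch was not tested. The replicate block by that number gave 954 genes higher and 1076 lower in Cebpa-KO. It gave 2982 and 3149 in DKO against Trib1-KO and 1336 and 1287 for the interaction. Of 123 called genes whose values are given, 11 lost the call in at least 1 setting, namely Acadm, Alb, Apoa1, Arntl, Cyp2e1, Dusp1, Ghr, Lrp3, Per2, Slc2a2 and Zhx2, and the cause was not tested. The Alb call was lost only under quantile normalization, which cannot show a change in a gene that keeps its rank. The summed Saa genes did not pass with all libraries, at -1.19 (exact permutation p = 0.078, adjusted over 12 sums 0.078). Without F3, which was left out after it stood apart for Saa1 and Saa4, the sum was at -1.72 (exact permutation p = 0.00216).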
